A study of Mus musculus with 2 samples.

Results

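The mitochondrial carrier family consists mainly of transporters that sit in the inner mitochondrial membrane, most of which move a nucleotide, a carboxylate, an amino acid or a cofactor between the cytosol and the matrix. Its members are encoded by nuclear genes of the Slc25a series. H3K36me3, trimethylation of lysine 36 of histone H3, is laid down behind elongating RNA polymerase II by the methyltransferase SETD2, so it is known for lying over the bodies of transcribed genes and for being scarce at their starts. Members were taken by name, as every protein-coding gene of GENCODE M21 whose symbol is Slc25a followed by a number. This gave 47 of 21911 protein-coding genes, spread over 19 chromosomes.

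The mark was mapped by chromatin immunoprecipitation and sequencing in E14TG2a.4, a male embryonic stem cell line of strain 129/Ola, labelled as embryonic at an age of 3.5 days and with no treatment. There was 1 group of 2 replicates, which the labels list as separate biosamples of the same line. Values are shares of bases of a gene body that lay in the peaks called for that replicate, on mm10, and the depth behind the peaks is unknown. Genes with 10% or more of the body in peaks in both replicates are termed marked. Replicate 1 had 107779 peaks over 139 Mb and replicate 2 had 98185 peaks over 127 Mb. As a check of the label, 8 of 8 genes known to mark embryonic stem cells were marked, against 37.2% of all coding genes. Among the 8 was Pou5f1 with 68.8% in replicate 1 and 64.8% in replicate 2. Of 8 genes of differentiated cell types 1 was marked, the neural and eye regulator Pax6 with 16.8% and 21.9%.

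The sequences just upstream of 4 starts are shown first, because neither replicate had a peak in them although the gene bodies behind them differed. Slc25a1, the citrate carrier, and Slc25a5, the ADP/ATP carrier of proliferating cells, were marked. Slc25a31, the ADP/ATP carrier of male germ cells, and Slc25a24, a calcium-regulated ATP-Mg/phosphate carrier, had no covered base anywhere in their bodies. Each run is the 250 bases before the RefSeq start on GRCm38.p6, written 5′ to 3′ on the strand of the gene. They lie at chr16:17928220-17928469 on the minus strand for Slc25a1, chrX:36795347-36795596 on the plus strand for Slc25a5, chr3:40708621-40708870 on the plus strand for Slc25a31, and chr3:109122899-109123148 on the plus strand for Slc25a24. Capitals mark CpG dinucleotides.
Slc25a1: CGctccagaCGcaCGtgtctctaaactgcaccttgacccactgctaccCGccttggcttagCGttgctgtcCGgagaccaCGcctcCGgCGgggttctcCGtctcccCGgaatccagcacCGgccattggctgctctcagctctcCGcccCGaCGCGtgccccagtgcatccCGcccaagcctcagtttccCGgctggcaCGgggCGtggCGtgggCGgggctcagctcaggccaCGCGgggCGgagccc
Slc25a5: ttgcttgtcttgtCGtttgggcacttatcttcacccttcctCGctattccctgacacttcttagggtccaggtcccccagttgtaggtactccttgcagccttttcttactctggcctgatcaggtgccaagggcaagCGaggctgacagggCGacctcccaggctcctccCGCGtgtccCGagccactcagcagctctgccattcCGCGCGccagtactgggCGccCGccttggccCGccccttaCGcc
Slc25a31: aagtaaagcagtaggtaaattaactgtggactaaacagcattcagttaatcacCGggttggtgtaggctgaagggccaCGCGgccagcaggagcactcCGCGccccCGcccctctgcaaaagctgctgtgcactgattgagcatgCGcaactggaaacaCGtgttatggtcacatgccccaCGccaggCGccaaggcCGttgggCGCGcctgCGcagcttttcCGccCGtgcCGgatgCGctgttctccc
Slc25a24: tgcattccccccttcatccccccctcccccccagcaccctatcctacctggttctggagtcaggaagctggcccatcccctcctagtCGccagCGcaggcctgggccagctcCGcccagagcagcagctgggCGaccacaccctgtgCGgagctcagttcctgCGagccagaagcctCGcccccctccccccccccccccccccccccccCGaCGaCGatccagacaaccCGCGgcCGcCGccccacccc

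The 4 runs held 25, 14, 18 and 14 CpGs in that order, so a start rich in CpG was found beside a marked body and beside an uncovered one. Promoter windows of 300 bases, 250 before and 50 after the start, could be matched for 36 of the 47 members. The ratio of observed to expected CpG had a median of 0.784 over 22 marked members and 0.569 over 14 unmarked members, against 0.602 over the 16522 promoters of coding genes. Among the 8 matched members with no covered base the median was 0.487, yet Slc25a31 stood at 0.826. Of the 36 windows 2 held covered bases, against 213 of the 16522 promoters of coding genes. They were those of Slc25a18 and Slc25a22, which are described with their neighbours further on.

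Over the family, 29 of 47 genes (61.7%) were marked, against 37.2% of all coding genes. No base was covered in either replicate in 10 members (21.3%), against 50.1% of coding genes. The remaining 8 had some covered bases but missed 10% in at least 1 replicate, as did 2778 of the 21911 coding genes. The median covered share of the members was 36.01% in replicate 1 and 28.7% in replicate 2, and over all coding genes it was 0 in each. Among marked genes the order was the other way round, with medians of 49.97% and 48.0% in the 29 members and 57.1% and 52.9% in the 8155 marked coding genes. At least 50% of the body lay in peaks in each replicate in 12 members (25.5%), against 19.3% of coding genes. The replicates differed by a median of 3.65 points in marked members. Of the 409 kb of member sequence covered in either replicate, 64.4% was covered in both.

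**Figure D1:**
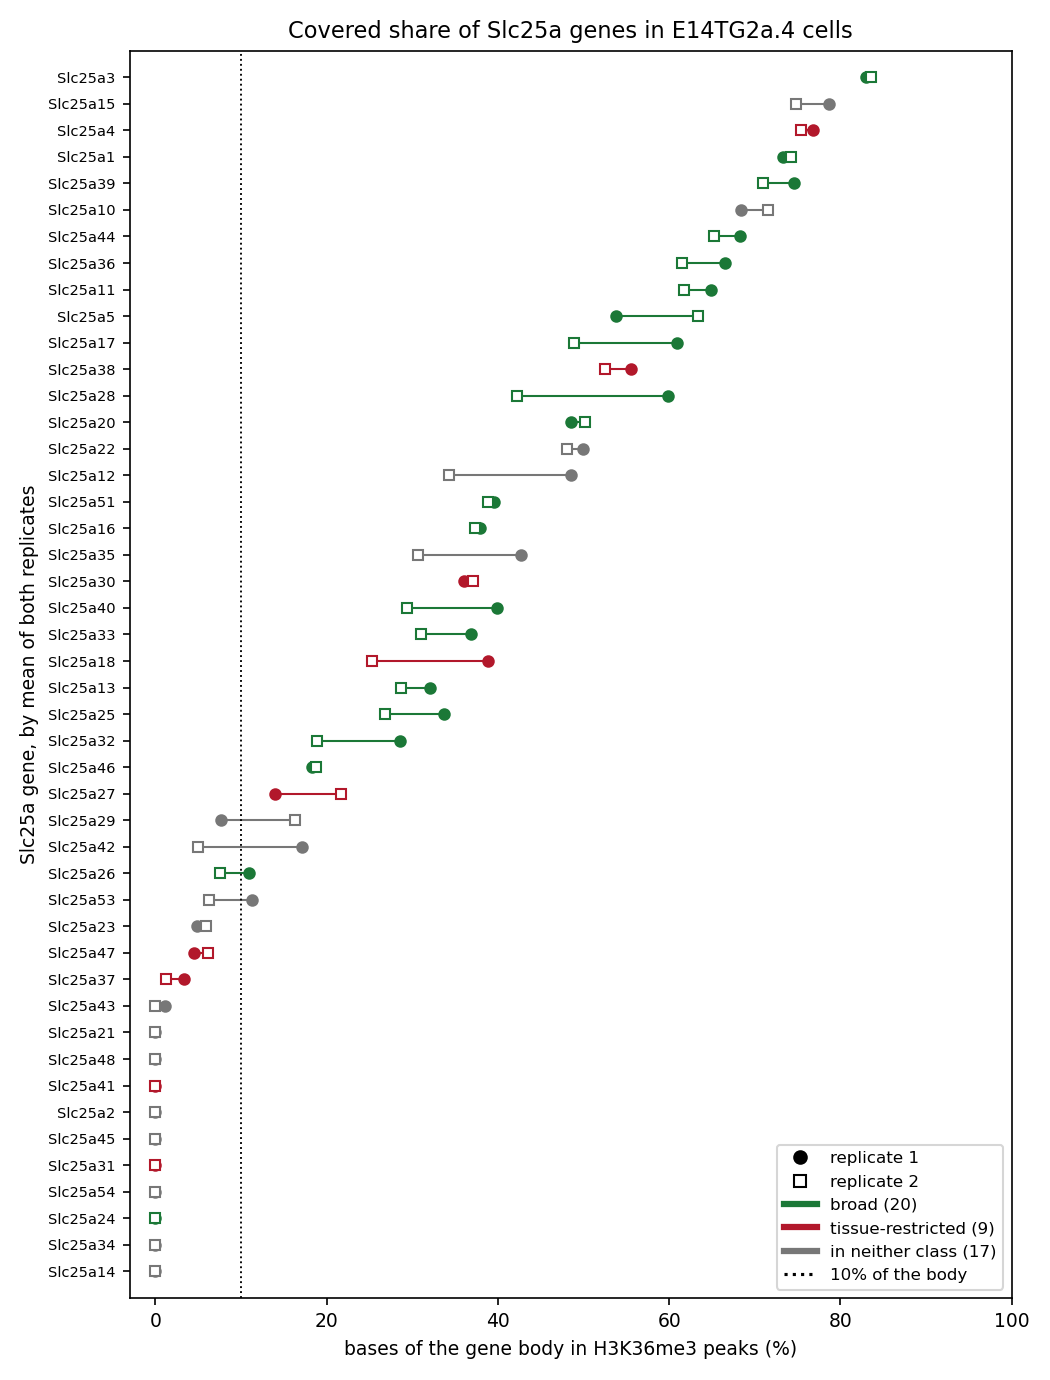
Share of each gene body in H3K36me3 peaks (x axis, percent) for 46 of the 47 Slc25a genes (y axis, ordered by the mean of both replicates). Filled circles are replicate 1 and open squares replicate 2, colours give the expression class, and the dotted line stands at 10%; the shares run without a break from Slc25a3 at 83.3% to 10 genes at 0.

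The carriers that feed oxidative phosphorylation split between the top and the bottom of the range. Slc25a3, the carrier that imports phosphate for ATP synthase, had the highest share of the family, 83.0% in replicate 1 and 83.6% in replicate 2 (83.3% ± 0.368, SD, n = 2). In each replicate 2 peaks made up this cover, and the middle part of its body was covered to 97.4% and 95.6%. Slc25a4, the ADP/ATP carrier of heart and skeletal muscle, had 76.8% and 75.4%, from a single peak in each replicate (76.1% ± 1.02). That peak spanned chr8:46205756-46210245 in replicate 1 and chr8:46206345-46210180 in replicate 2, so it began about 1 kb behind the start and ran past the end of the gene. Slc25a5 was covered to 53.8% and 63.3% (58.6% ± 6.74). Of the 3 ADP/ATP carriers, the muscle and the proliferating-cell forms were thus both marked and the germ-cell form Slc25a31 stood at 0 in each replicate. Part of Slc25a5 is repeated elsewhere in the genome. Of 32-base words sampled from its whole body 72.2% occurred once, and of those from its exons 39.9%, against exon values of 99.1% for Slc25a4 and 100% for Slc25a31. A 32-base read from a repeated word cannot be placed with certainty, and longer reads were not examined.

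The 3 calcium-regulated ATP-Mg/phosphate carriers and their short relative Slc25a41 were covered less. Slc25a25 was covered to 33.7% and 26.8% (30.3% ± 4.86), mostly towards its 3′ end, where the last of 3 equal parts of the body stood at 58.7% and 59.0%, and the middle part to 8.64% and 0. Slc25a23 reached 4.87% and 5.92%, and Slc25a24 and Slc25a41 stood at 0 in each replicate. Over the 8 genes for adenine nucleotides and phosphate, 4 were marked and 3 had no covered base, against 37.2% and 50.1% of coding genes.

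Carriers of di- and tricarboxylates were among the most covered. Slc25a1, which exports citrate for lipid synthesis, was covered to 73.3% and 74.2% (73.8% ± 0.637). Slc25a10, the dicarboxylate carrier, was covered to 68.3% and 71.5% (69.9% ± 2.25). Slc25a11, the oxoglutarate/malate carrier of the malate-aspartate shuttle, was covered to 64.8% and 61.8% (63.3% ± 2.17). Each of these bodies carried 1 peak per replicate, and the replicates lay within 4 points of each other. The fourth gene, Slc25a21, the oxodicarboxylate carrier, is the longest of the family at 485 kb and had no covered base.

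Of the 9 amino acid carriers 7 were marked, against 37.2% of coding genes. Slc25a15, the ornithine carrier of the urea cycle, had 78.7% and 74.8% (76.7% ± 2.74), close to Slc25a4, and its intronless relative Slc25a2 had no covered base. Slc25a44, a branched-chain amino acid carrier, was covered to 68.3% and 65.3%. Slc25a38, which is needed for haem synthesis in red cell precursors, was covered to 55.6% and 52.5%. The aspartate/glutamate carriers of the malate-aspartate shuttle were both marked. Slc25a12, the form of brain and muscle, was covered to 48.6% and 34.3%, and Slc25a13, the form of liver and other tissues, to 32.1% and 28.7% of its 176 kb. The glutamate carriers Slc25a22 and Slc25a18 were covered to 49.97% and 48.0%, and to 38.8% and 25.3%. The basic amino acid carrier Slc25a29 had 7.64% and 16.3% and so passed 10% in replicate 2 alone.

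Of the 9 carriers for cofactors, one-carbon units and pyrimidine nucleotides 7 were marked and none stood at 0, against 37.2% and 50.1% of coding genes. Slc25a36, a pyrimidine nucleotide carrier, was covered to 66.5% and 61.5% (64.0% ± 3.55), and the second one, Slc25a33, to 36.9% and 31.0%. Slc25a17, a peroxisomal carrier of cofactors, was covered to 60.9% and 48.9%. Slc25a51, the NAD carrier, had 39.5% and 38.8%, and Slc25a16, which is linked to coenzyme A, had 37.9% and 37.3%. Slc25a32, the folate and FAD carrier, had 28.6% and 18.9%. The S-adenosylmethionine carrier Slc25a26 had 11.0% and 7.53%, and the coenzyme A carrier Slc25a42 had 17.2% and 4.95%, so these both passed 10% in replicate 1 alone.

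The mitoferrins, which import iron, lay far apart. Slc25a28, the broadly expressed form, was covered to 59.9% and 42.2% (51.0% ± 12.5), and Slc25a37, the form of red cell precursors, to 3.39% and 1.28% (2.33% ± 1.49). Both replicate values of Slc25a28 were above both of Slc25a37. Over exons alone Slc25a28 was covered to 79.8% and 52.0%, and Slc25a37 to 17.0% and 9.22%, more than over its body. Slc25a37 also has the least unique body of the Slc25a genes. Of the 32-base words of its body 28.6% occurred once in the genome, although 92.8% of those of its exons did. Slc25a39, the glutathione carrier, was covered to 74.5% and 70.9% (72.7% ± 2.58), and its relative Slc25a40 to 39.8% and 29.4%. By the authors' own value per peak, Slc25a39 also carried the strongest enrichment of the Slc25a genes in replicate 2. Its single peak there had a fold of 20.5, against 10.2 in replicate 1. Averaged over the body with 0 outside peaks, that fold lay above 86.9% of marked coding genes in replicate 1 and above 97.2% in replicate 2.

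Among the remaining groups, Slc25a20, the carnitine/acylcarnitine carrier of fatty acid oxidation, was covered to 48.6% and 50.2% (49.4% ± 1.13). Slc25a30, a kidney-enriched relative of the uncoupling proteins, was covered to 36.01% and 37.1%, and the neuronal Slc25a27 to 14.01% and 21.7%, the lowest mean among the marked members. Slc25a14, another uncoupling-related gene, had no covered base. Slc25a46, an outer membrane protein that shapes mitochondria, was covered to 18.3% and 18.8%. Of 8 less characterised members Slc25a35 was marked, at 42.7% and 30.7%, and 4 had no covered base (Slc25a34, Slc25a45, Slc25a48 and Slc25a54), against 37.2% and 50.1% of coding genes.

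**Figure D2:**
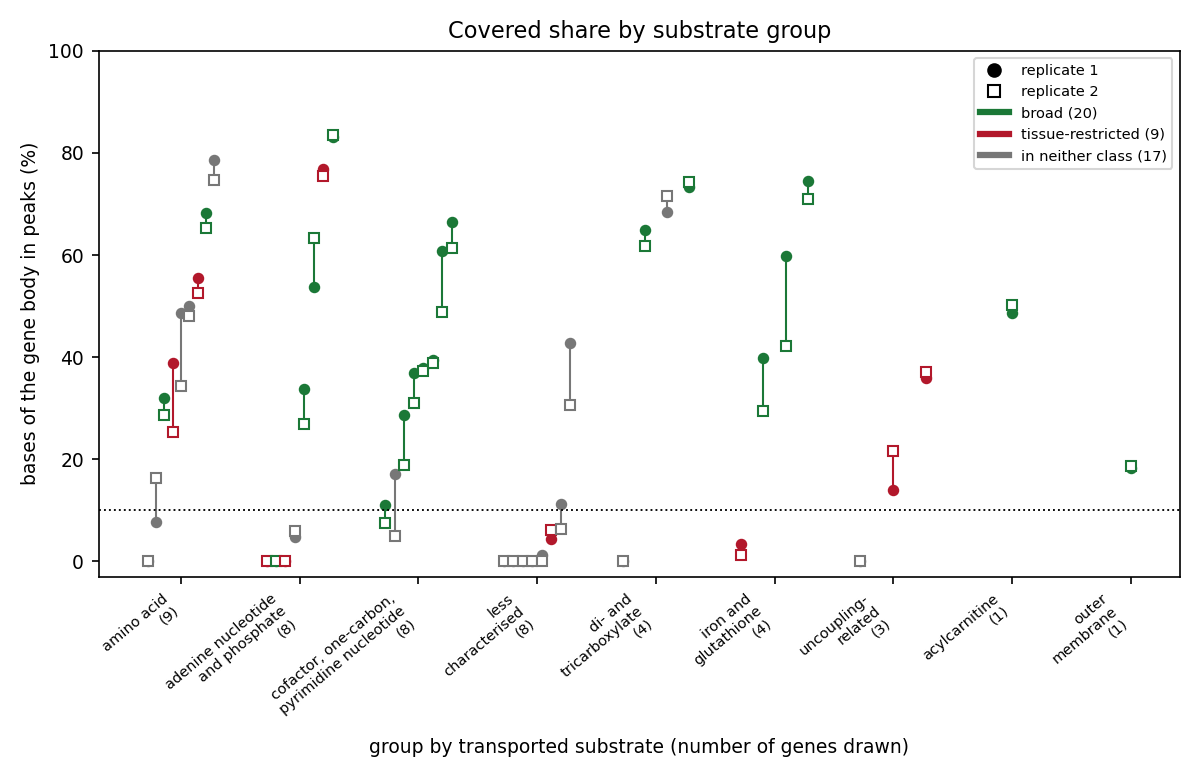
Share of the gene body in peaks (y axis, percent) for 46 Slc25a genes, grouped by transported substrate (x axis, with the number of genes drawn). Circles are replicate 1, squares replicate 2 and colours the expression class. Of 9 amino acid carriers 7 lie above the dotted 10% line in both replicates, and 1 of 8 less characterised genes does, against 37.2% of coding genes.

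By general knowledge of adult tissues, 21 members are expressed broadly, 9 are restricted to few tissues and 17 were put in neither class. These classes were made with earlier results of these data known and are a judgement, since Slc25a4, for example, is also found at lower levels outside muscle. Of the broad members 19 of 21 (90.5%) were marked, of the restricted members 5 of 9 (55.6%), and of the rest 5 of 17 (29.4%), against 37.2% of coding genes. The 5 marked genes in neither class were Slc25a10, Slc25a12, Slc25a15, Slc25a22 and Slc25a35. Slc25a12 of brain and muscle and Slc25a15 of the urea cycle could be put with the restricted genes, so the contrast depends on such choices. Other assignments were not tested. The median covered share of broad members was 48.6% in replicate 1 and 42.2% in replicate 2 (45.4% ± 4.51), and that of restricted members was 14.01% and 21.7% (17.9% ± 5.45). The restricted median is the value of a single gene, Slc25a27, and it moved to 33.1% in the pooled set, to 36.2% in the other run's set of peaks found in both replicates, where the broad median was 52.3%, and to 1.55% by the middle part of the body. The classes overlapped widely. Slc25a4 and Slc25a38, known from muscle and red cell precursors, lay above most broad genes, and among broad genes Slc25a24 had no covered base and Slc25a26 missed 10% in replicate 2. The restricted members that were not marked were Slc25a31 of germ cells, Slc25a41, known from testis, Slc25a37 of red cell precursors and Slc25a47, known from liver.

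Position of the mark was first read in 3 equal parts of the body, over the 28 marked members of at least 3 kb. The 5′ part was covered to 25.3% and 18.0% in the 2 replicates, the middle part to 61.8% and 60.8%, and the 3′ part to 63.7% and 62.2%. Between the end parts the difference, 3′ minus 5′, was 38.4 points in replicate 1 and 44.2 points in replicate 2 (41.3 ± 4.10), and over the 7789 marked coding genes of that length it was 36.1 ± 1.18 points. In 25 of 28 members (89.3%) the 3′ part was the more covered one in each replicate, against 85.0% of marked coding genes. Slc25a35 and Slc25a46 were among the exceptions, but their RefSeq spans end earlier, at 0.709 and 0.564 of the GENCODE length. On the RefSeq span the 3′ part was the more covered one in both, with 84.0% and 82.4% against 25.4% and 0 in Slc25a35 and 29.9% and 31.6% against 19.2% and 16.6% in Slc25a46. Slc25a10 changed the other way, since its RefSeq span ends later, at 1.27 of the GENCODE length. On that span its 3′ part was the more covered one in replicate 1 alone. In replicate 2 it had 32.05%, against 37.001% in the 5′ part. With the body in 10 equal bins from the 5′ end, the share was 6.93% ± 3.29 in bin 1, 55.3% ± 1.84 in bin 4, 69.3% ± 2.20 in bin 8 and 56.0% ± 0.0314 in bin 10. In marked coding genes bin 4 stood at 52.7% ± 2.40 and bin 9 was the highest, at 70.8% ± 1.04. Bins 2 and 3 were covered to 20.7% ± 4.06 and 27.98% ± 9.49 in members and to 33.9% ± 2.90 and 45.7% ± 2.71 in marked coding genes. No test was made of these differences.

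**Figure D3:**
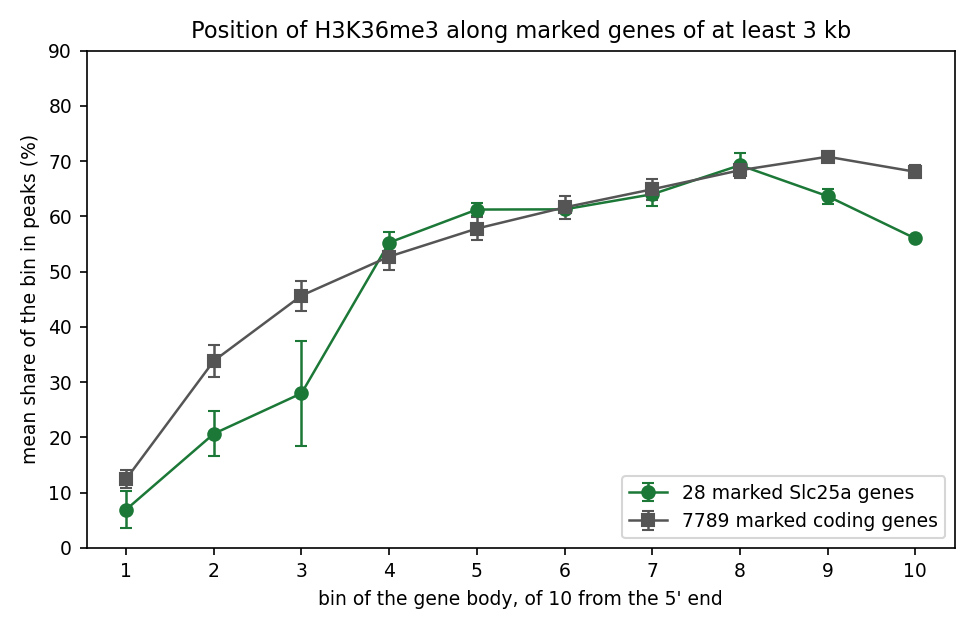
Mean share in peaks (y axis, percent) of each of 10 equal bins of the gene body from the 5′ to the 3′ end (x axis), for 28 marked Slc25a genes and 7789 marked coding genes of at least 3 kb. Points are means of the 2 replicates and bars their SD; members lie below coding genes in bins 1 to 3, near them in bins 4 to 8, and below them in bins 9 and 10.

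The distance from the start to the first covered base in marked members had a median of 2327 bp in replicate 1 and 2650 bp in replicate 2. A covered base within 500 bp of the start was found in 2 of 29 marked members, against 5.92% of marked coding genes. It was found in 0 of 18 unmarked members, for which the share of unmarked coding genes was not computed. By definition, unmarked members have under 10% of the body covered in at least 1 replicate. Around the annotated end of marked members, the 1 kb window was covered to 46.8% and 43.1% on average, and the 5 kb beyond the end to 27.2% and 23.2%. In unmarked members the window had 5.56% and 4.07%, and the 5 kb beyond had 15.2% and 13.5%. These flanks can lie in neighbouring genes. Beyond Slc25a18, where Atp6v1e1 lies, the 5 kb were covered to 100% in each replicate. Shorter marked members had the larger shares. The 9 marked members under 10 kb had medians of 68.3% and 70.9%, and in 7 of them at least 50% of the body was covered in each replicate, against 59.8% of marked coding genes of that length. The 20 marked members from 10 kb had medians of 39.7% and 37.2%, and 5 of them reached 50% in each replicate, against 48.8% of marked coding genes of that length. For exons and introns, the exons of all annotated transcripts of a gene were merged. A base counted as exon can therefore be intron in another transcript. Exons of marked members were covered to 55.7% and 53.8% and introns to 39.9% and 34.4%. The ratio was 1.48 ± 0.117, against 1.55 ± 0.0872 over marked coding genes. The exons were the more covered part in each replicate in 19 of 29 members, against 67.2% of marked coding genes.

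Some of this cover lies next to marked neighbours, and peaks alone do not say to which gene it belongs. Slc25a18, a glutamate carrier known from brain, had cover at both ends and none between. The 5′ part of its body was covered to 46.98% and 23.9%, the middle part to 0 in each replicate, and the 3′ part to 69.4% and 51.8%. The window around its start was covered to 100% and 76.3%. Cecr2, a chromatin remodelling factor on the same strand, ends 2.39 kb upstream and was covered to 30.8% and 27.9%, and Atp6v1e1, a proton pump subunit on the other strand, overlaps its end by 32 bp and was covered to 70.4% and 67.02%. Slc25a22 likewise had its start window covered to 61.2% and 60.4%, while the 5′ part of its body was covered to 4.12% and 3.83%. Pidd1, on the same strand, ends 220 bp upstream and was covered to 84.5% and 83.6%. The middle and 3′ parts of Slc25a22 were covered to between 63.3% and 82.5%.

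The middle part of a body lies away from both ends. By that part alone, 26 of 47 members had at least 10% in peaks in each replicate, against 32.6% of coding genes. The marked members that missed it were Slc25a18, Slc25a25 and Slc25a27, so 3 of 9 restricted members passed, Slc25a4, Slc25a38 and Slc25a30, and 18 of 21 broad ones.

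Members that lie side by side in the genome were compared, since they share their surroundings. Slc25a5 lies 18.4 kb behind Slc25a43 on the X chromosome, and Slc25a43 was covered to 1.18% and 0. Slc25a54 and Slc25a24 lie 6.46 kb apart on chromosome 3, and neither had a peak in either replicate. Slc25a29 and Slc25a47 start 162 bp apart in GENCODE and point away from each other, while the RefSeq span of Slc25a47 starts within the GENCODE one. Slc25a47 was covered to 4.46% and 6.10%, while the genes beyond the pair were heavily covered, Wars, the tryptophan tRNA ligase, to 87.3% and 89.7% and Yy1, a zinc finger transcription factor, to 80.1% and 64.5%. Slc25a41 lies 2.06 kb behind Slc25a23 and had no covered base, although Khsrp, an RNA-binding protein gene that starts 1.25 kb further on in the same direction, was covered to 82.5% and 80.1%. An empty member beside a covered gene was also seen at Slc25a45, whose upstream neighbour Frmd8, a membrane adaptor gene 2.53 kb away, was covered to 82.8% and 82.2%. Slc25a26 had thin cover along its whole body, with 14.3% and 6.56% in the 5′ part, 7.64% and 8.10% in the middle part and 10.9% and 7.92% in the 3′ part. The 1 kb around its end, where the convergent Lrig1, a growth factor receptor regulator, overlaps it by 144 bp, was covered to 100% and 73.2%. Slc25a42 had 51.6% and 14.9% in the 3′ part of its body and 0 before it. The convergent Tmem161a ends 658 bp away. The 1 kb around the end of Slc25a42 stood at 0 in both replicates, and the 5 kb beyond the end was covered to 47.1% and 52.98%. To which gene the cover in the 3′ part belongs was not tested.

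**Figure D4:**
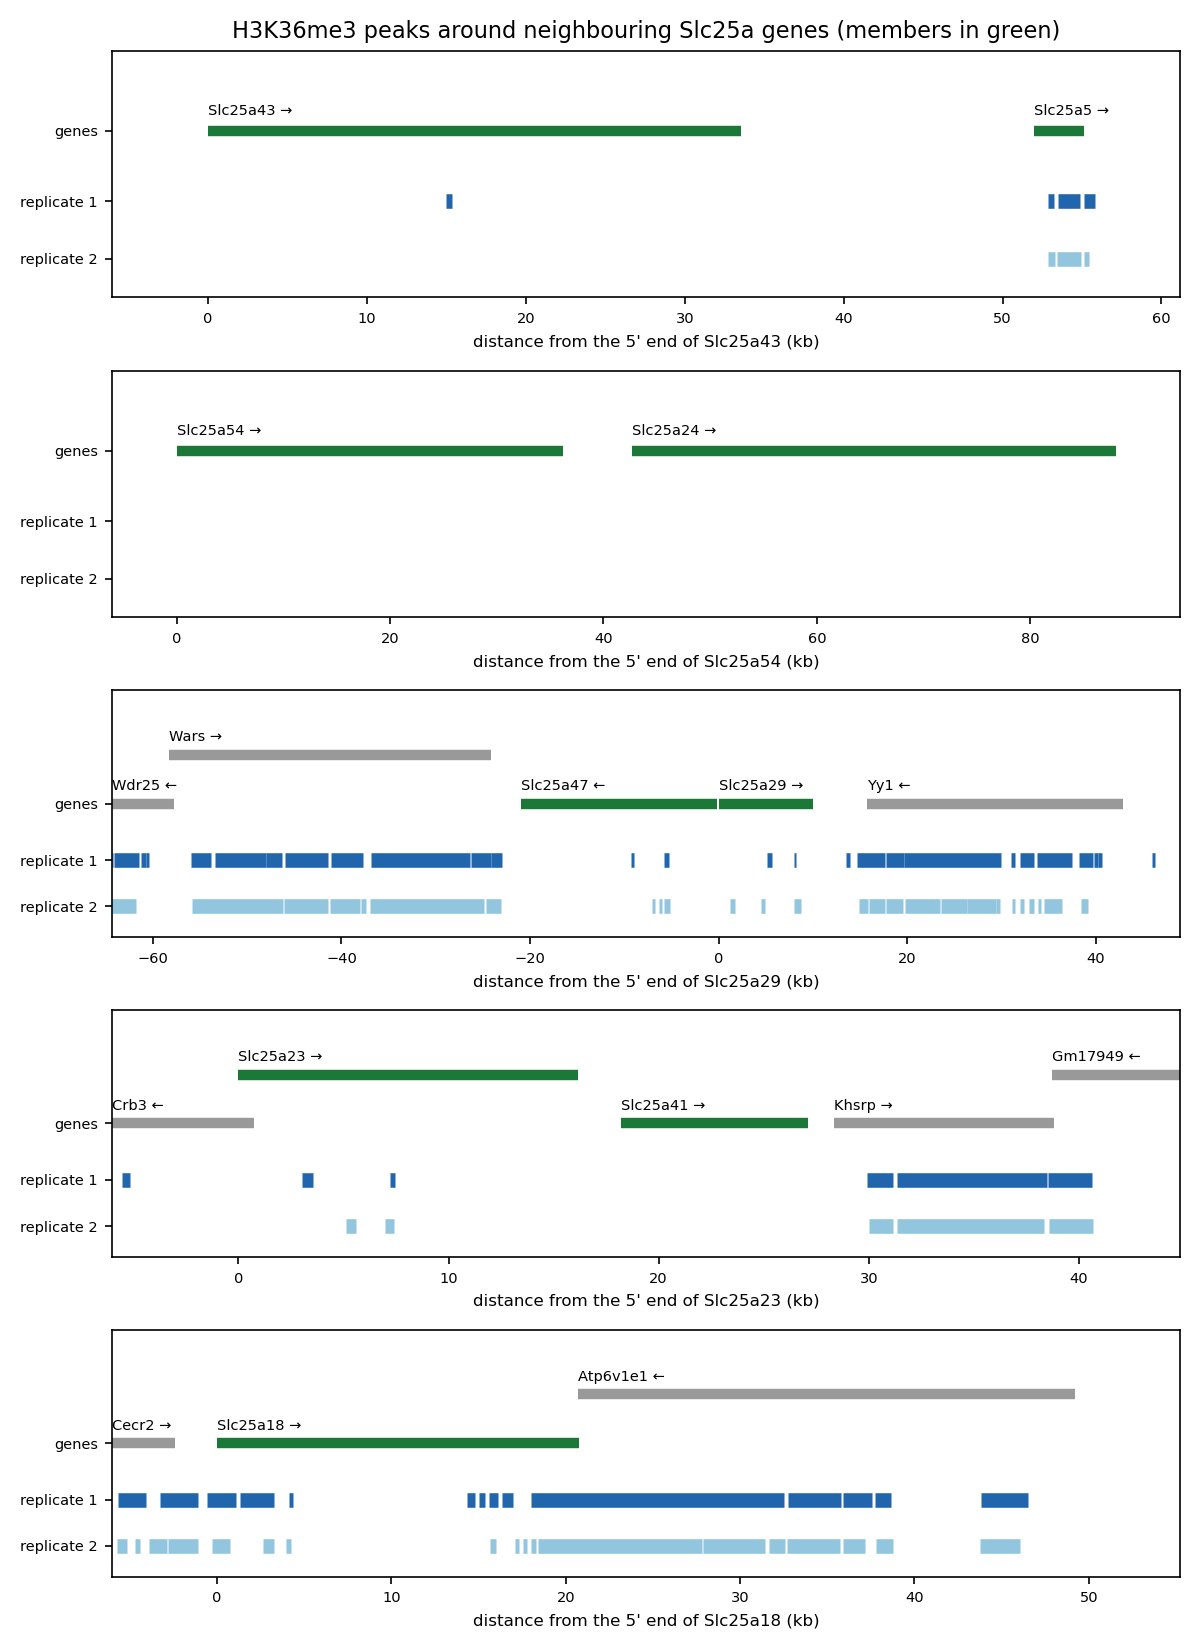
Peaks of replicate 1 (dark blue) and replicate 2 (light blue) and coding genes (green for Slc25a genes, grey for others, arrows for direction) by distance in kb from the 5′ end of the named member. Slc25a54 and Slc25a24 show no peak, Slc25a41 lies empty before the covered Khsrp, and the peaks of Slc25a18 lie at its ends.

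Genes of the same system were read from 4 lists made by function. Of 20 such genes 16 were marked, against 37.2% of coding genes. The 10 genes of the import path for carriers, from the outer membrane receptors to the TIM22 complex, were all marked, with mean shares from 33.4% in Timm10 to 88.0% in Tomm20, and Tomm40, the import pore, had 86.5% and 86.4%. The outer membrane channels Vdac1, Vdac2 and Vdac3 were marked, with means from 45.7% to 64.7%. Of genes of the carrier family with other names, Mtch2 had 87.2% and 83.6%, Mtch1 had 63.7% and 63.9%, and the uncoupling protein gene Ucp2 had 76.1% and 68.9%. Ucp1, the uncoupling protein of brown fat, and Ucp3, that of muscle, had no covered base. The mitochondrial pyruvate carrier, whose subunits belong to another family, was not marked, with Mpc1 at 0 and 7.27% and Mpc2 at 0 in each replicate.

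Peak sets made in another way gave from 28 to 36 marked members. In the unthresholded sets of the second processing run 35 of 47 were marked, against 40.2% of coding genes. In the main sets limited to peaks with −log10 q of at least 5 the count was 28, without Slc25a27, against 35.8% of coding genes. The highest count, 36, came from the other run's set of peaks found in both replicates, where 42.2% of coding genes were marked. The gain in the unthresholded sets came from Slc25a26, Slc25a29, Slc25a42 and Slc25a53, each past 10% in a single main replicate, from Slc25a23, which went from 4.87% and 5.92% to 16.6% and 19.5%, and from Slc25a2, which had 0 in each main set and 31.9% and 11.1% in the unthresholded ones. Slc25a2 is a gene of 1.37 kb that lies wholly within 3 long transcription units on the other strand, with the marked Taf7 1.75 kb upstream of it. Slc25a5 went the other way, from 58.6% ± 6.74 to 49.5% and 51.4%. The 7 members with no covered base in either kind of set were Slc25a14, Slc25a21, Slc25a24, Slc25a31, Slc25a41, Slc25a48 and Slc25a54. The matching share of coding genes was not computed.

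**Figure D5:**
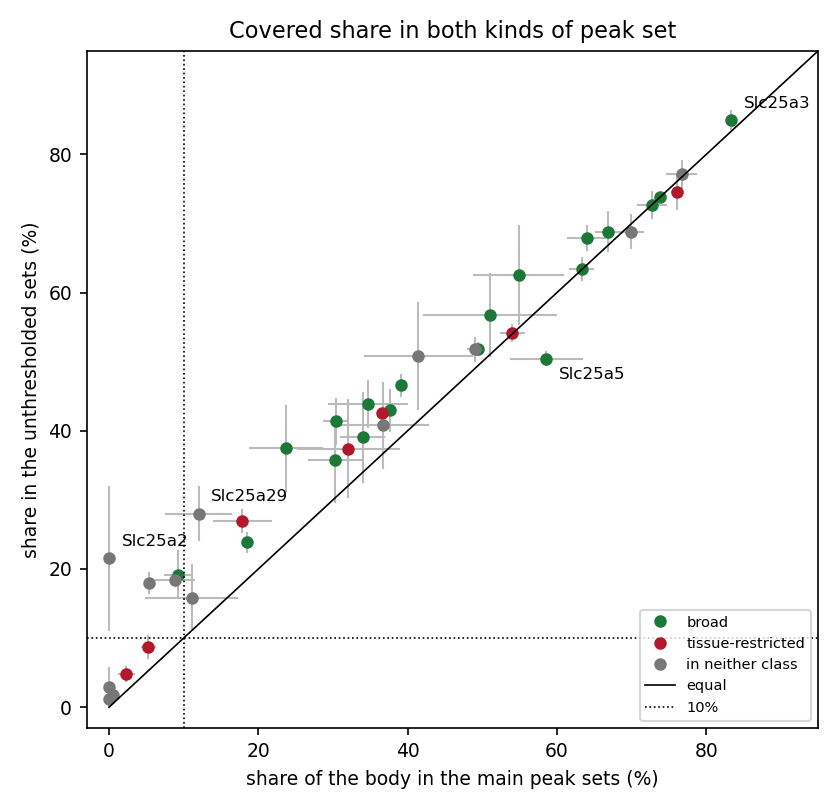
Share of the body in the main sets (x axis, percent) against the unthresholded sets of the other run (y axis, percent) for the Slc25a genes drawn before that have a covered base in either. Points are means, grey bars join the 2 replicates, the solid line marks equal shares and dotted lines 10%; Slc25a2 lies at 0 on one axis and 21.5% on the other, and Slc25a5 lies below the line.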

How the data were processed

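H3K36me3 ChIP-seq peak lists of 2 replicates of E14TG2a.4 cells were used. Per the labels' file lists, the mm10 sets come from 2 processing runs, of which the main one gave peaks supported by pseudoreplicates for each replicate and the other unthresholded sets. Aligner, caller and read numbers: not given in the sources used here. Each deposited peak has a fold over background (a ratio, as the authors' caller wrote it) and a −log10 q-value. The fold was used for description and for ranks inside 1 set.

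Gene spans were those of GENCODE M21 (GRCm38, which is mm10); 27 duplicate records were left out. Overlapping peaks were merged, and covered bases were divided by the length of the whole annotated span (Python 3.11.15, numpy 2.4.6, pandas 2.3.3). Values are means ± SD over 2 replicates. No test between groups exists in this design, so counts stand beside those of all coding genes, and p-values were not computed. The alternatives were other peak sets, thresholds and gene spans, 1 replicate left out, and bases in no other coding gene. Every member could be named, and other genes were named from lists of related genes or as neighbours of members with partial cover; Khsrp, Frmd8 and Taf7, beside uncovered members, and Pou5f1 and Pax6, from the check of the label, were named after their values were seen. Members, classes and lists were chosen with earlier results of these data known. The peak arithmetic was tested on simulated peaks. Promoters came from RefSeq, GRCm38.p6. For uniqueness, 32-base words were looked up on chromosomes 1 to 19, X and Y on both strands; the reference is C57BL/6J, another strain than that of the cells. One member counted in the totals is not reported here by name or drawn. The expression of the genes was not analysed here.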

Additional observations from a re-analysis of the deposited data

How the results depend on the processing

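Over the peak sets, spans and single replicates tried, from 26 (middle part of the body) to 36 of the 47 members were marked; at 50% of the body 12 were, 8 broad and 2 restricted. The median share of broad members was 45.4% and moved to 50.1% in the unthresholded sets, 60.3% in the pooled set and in the main set of peaks found in both replicates, 52.3% in the other such set, and 61.3% by the middle part of the body. That of restricted members, 17.9%, moved to 26.9%, 33.1%, 29.6%, 36.2% and 1.55% in that order, and to 12.1% with −log10 q of at least 5; by the middle part 3 restricted members were marked. The RefSeq span and the middle part were chosen after seeing the data. The excess of the 3′ over the 5′ part, 41.3 points, was 33.9 in the unthresholded sets, 35.3 in the pooled set, 33.7 and 31.98 in the sets of peaks found in both replicates, 32.6 in members of at least 10 kb, and 36.004 to 42.9 with 1 replicate left out. The exon to intron ratio of 1.48 was 1.30 in the other set of peaks found in both replicates, 1.24 with genes weighted equally and 1.32 in the 3′ part. The cause of these shifts was not tested. Slc25a2 has no base outside other coding genes and could not be given a value there. Depth is unknown, so a share of 0 means no called peak.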

Other observations

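The annotated span sets the share of some members. In 8 of 47 the RefSeq gene differs from the GENCODE span by over 10% in length. On the RefSeq span Slc25a46 was covered to 32.3% and 33.2%, against 18.3% and 18.8%, and Slc25a35 to 60.3% and 43.3%, against 42.7% and 30.7%. Other shares fell on a longer RefSeq span. Slc25a10 had 57.9% and 56.4%, against 68.3% and 71.5%, and Slc25a39 had 65.1% and 61.9%, against 74.5% and 70.9%. Slc25a27 and Slc25a38 fell too, and Slc25a4, with a shorter RefSeq span, rose. The RefSeq span of Slc25a47 is 6.98 kb long and had no covered base, so the little cover counted above lies in the longer GENCODE span. No member changed its call.

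Short motifs were looked up in the 36 matched promoter windows, on both strands. GCATGCGC, a core of the site of the nuclear respiratory factor NRF1, was found in 2 members (5.56%), against 3.76% of coding promoters, and both, Slc25a31 and Slc25a54, had no covered base. TCAAGGTCA, an element bound by oestrogen-related receptors, was found in 0 members, against 0.333%. TATAAA was found in Slc25a18 alone, 2.78% of members, against 12.9%. A match is a stretch of letters and not a site in use.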
